A study of Homo sapiens with 12 samples.

Results

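The human mitochondrial genome carries 37 genes, and all 37 were found in the table of counts by taking every Ensembl ID whose symbol begins with MT-. They are 37 of the 60656 IDs listed. There are 13 mRNAs, 2 ribosomal RNAs (rRNAs) and 22 transfer RNAs (tRNAs). On chromosome M, 28 of these genes lie on the plus strand, and 9, MT-ND6 and 8 tRNAs, lie on the minus strand. The RNA came from 3 established human cell lines, A2058, A375 and SKMEL-5, all labelled as metastatic melanoma, and no genetic change or other agent is named for any of them. Cells were kept either at the oxygen of air (normoxia, which serves as reference) or at 1% oxygen (hypoxia). That gave 6 groups of 2 libraries each, 12 libraries in all, numbered replicate 1 and 2. The design text calls the 2 libraries of a group biological duplicates. How long the cells were kept in low oxygen is not given in the sources used here, nor is whether duplicates were separate cultures, so p-values measure only the spread between these libraries.

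Mitochondrial DNA is transcribed on both strands from promoters in a short control region, as long RNAs that run through many genes. The plus strand, as the annotation names it, holds both rRNAs and all mRNAs but one; the minus strand holds MT-ND6 and the remaining tRNAs. Transfer RNAs sit between most of the larger genes, and enzymes that cut at their ends free the mRNAs and rRNAs from the long RNA. The mRNAs encode core subunits of complexes I, III and IV of the respiratory chain and of ATP synthase, whose other subunits are encoded in the nucleus.

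The sequences of the 6 tRNA genes that fell in hypoxia and of the start of an oppositely transcribed mRNA pair are shown because the comparison of strands rests on them. They are from GENCODE 29 on GRCh38, written 5′ to 3′ on the strand of the gene, with the anticodon of each tRNA in capitals. MT-TQ (glutamine, chrM:4329-4400), MT-TA (alanine, chrM:5587-5655), MT-TS1 (serine, chrM:7446-7514), MT-TE (glutamate, chrM:14674-14742) and MT-TP (proline, chrM:15956-16023) are on the minus strand, and MT-TD (aspartate, chrM:7518-7585) is on the plus strand.
MT-TQ: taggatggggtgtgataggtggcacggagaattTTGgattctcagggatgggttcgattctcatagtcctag
MT-TA: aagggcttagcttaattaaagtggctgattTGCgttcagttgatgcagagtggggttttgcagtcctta
MT-TS1: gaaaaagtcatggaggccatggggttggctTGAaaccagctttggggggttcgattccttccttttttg
MT-TE: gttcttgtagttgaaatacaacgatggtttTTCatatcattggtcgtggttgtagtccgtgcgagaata
MT-TP: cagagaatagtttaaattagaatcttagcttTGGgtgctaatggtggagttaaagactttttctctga
MT-TD: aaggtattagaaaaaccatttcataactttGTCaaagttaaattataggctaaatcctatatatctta

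The first 60 bases of MT-ND6 (gene at chrM:14149-14673, minus strand) and of MT-ND5 (gene at chrM:12337-14148, plus strand) follow, with the start codon in capitals. Both encode complex I subunits, and their genes meet end to end on opposite strands.
MT-ND6: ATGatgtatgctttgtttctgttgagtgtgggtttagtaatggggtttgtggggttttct
MT-ND5: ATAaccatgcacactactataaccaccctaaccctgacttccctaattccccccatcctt
Guanine made up 35.6% and cytosine 7.05% of the letters of MT-ND6. In the 12 plus-strand mRNAs guanine made up 6.28 to 16.2% and cytosine 29.5 to 36.0%.

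Library totals ran from 33831569 to 54202819 counts. The melanocytic regulator SOX10 was present in every library (765 to 1684 CPM, counts scaled to a common library size), while TYR and MLANA, which mark pigmented cells, had 0 counts in all A375 and SKMEL-5 libraries. Of 19 tested hypoxia targets 14 rose in the mean of the 3 lines (edgeR adjusted p under 0.05), as did 192 of all 19636 tested genes. One hypoxic library per line stood apart from its duplicate: replicate 2 of A2058 and replicate 1 of both A375 and SKMEL-5. They were singled out in an earlier look at these data in which MT-RNR2 was among the genes that differed, and values without them are given where they matter. The difference between duplicates, replicate 1 minus 2, correlated over genes between A375 and SKMEL-5 at r = 0.80 in hypoxia and r = 0.58 in normoxia (19636 genes, which are not independent replicates). For A2058 it was -0.47 and 0.26 with A375, and -0.41 and 0.47 with SKMEL-5. The tests over the 3 lines treat libraries of different lines as independent, so their p-values can be too small. Gene levels are CPM scaled by the trimmed mean of M-values (TMM).

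Mitochondrial mRNAs took a smaller part of the library in hypoxia than in normoxia in each line. The 13 mRNAs summed to 17.0 and 6.37% of counts in A2058 normoxia (replicates 1 and 2 here and throughout) and to 0.998 and 1.32% in hypoxia. In A375 they made up 3.82 and 2.66% of the normoxic libraries but 1.5 and 0.578% of the hypoxic ones. SKMEL-5 had 5.67 and 2.5% in normoxia, then 1.57 and 1.18% in hypoxia. The groups did not overlap in any line, and the gap was widest in A2058, whose normoxic duplicates also differed most.

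The 2 rRNAs did not follow the mRNAs in A375 and SKMEL-5. Their sum was 3.10 and 1.26% of counts in A2058 normoxia and 0.217 and 0.414% in hypoxia. In A375 it was 0.312 and 0.30% in normoxia against 1.82 and 0.0707% in hypoxia. SKMEL-5 normoxia held 0.641 and 0.299%, its hypoxia 1.56 and 0.168%. In these last lines hypoxic replicate 1 was above both normoxic libraries and replicate 2 was below both. The 22 tRNA genes together drew few reads: 21.1 and 19.7 CPM of the library total in A2058 normoxia, 1.30 and 1.75 CPM in A2058 hypoxia, and between 1.07 and 10.6 CPM in A375 and SKMEL-5. A count on a tRNA gene is a read assigned to its interval, so a mature tRNA and a longer RNA that contains it cannot be told apart, and the library kit is one for mRNA.

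**Figure D1:**
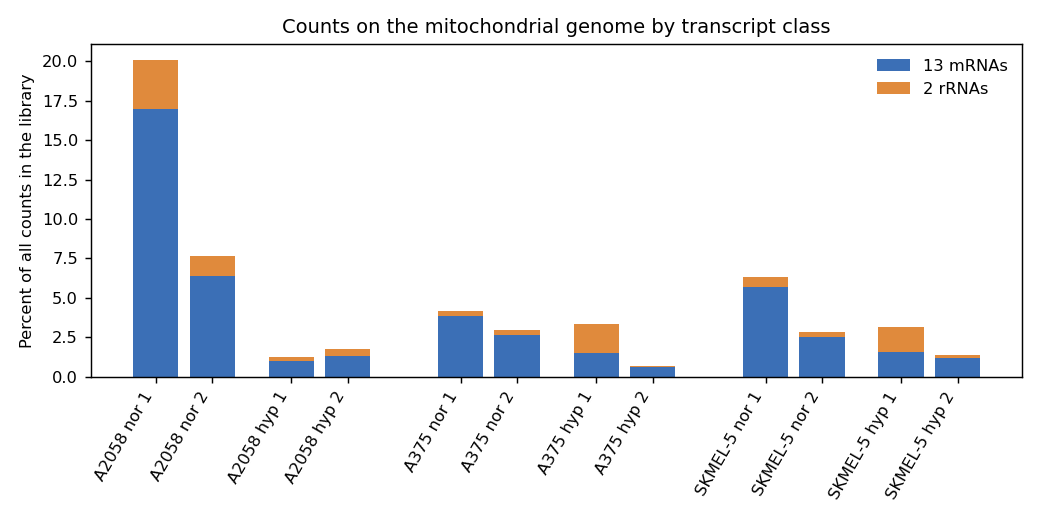
Percent of all counts in each library that fell on the 13 mitochondrial mRNAs and the 2 rRNAs, stacked, with nor for normoxia and hyp for hypoxia and 1 bar per library (tRNAs, at most 21.1 CPM, are not drawn). The mRNA part is lower in both hypoxic libraries of each line, and the rRNA part is largest relative to mRNA in A375 hypoxia 1 and SKMEL-5 hypoxia 1.

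Of the 37 genes, 26 passed the low-count filter: all 13 mRNAs, both rRNAs and 11 tRNAs. In the mean of the 3 within-line differences, hypoxia minus normoxia, 14 of these 26 fell and 0 rose (edgeR quasi-likelihood test, Benjamini-Hochberg adjusted p under 0.05). Among all 19636 tested genes 0.143% fell and 1.12% changed in either direction. The 14 were 8 mRNAs (MT-ND1, MT-ND2, MT-ND3, MT-ND6, MT-CYB, MT-CO3, MT-ATP6 and MT-ATP8) and the 6 tRNAs whose sequences are given above. These 6 tRNAs passed the filter through normoxic libraries, which favours a fall over a rise for them. None of the 26 had both hypoxic libraries above both normoxic ones in each line (4.86% of all tested genes did). In all 14, the 6 hypoxic libraries lay below the 6 normoxic ones with no overlap, which held for 0.677% of all tested genes. By class, the median log2 difference was -2.39 over the 13 mRNAs and -0.10 over the 2 rRNAs, against 0.02 over all tested genes. Since the RNA is from bulk cultures, fewer mitochondrial genomes, fewer cells that hold them and less RNA per genome cannot be told apart.

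The number of calls depended on the libraries. Among fits without a single library it was lowest without A375 normoxia 1 or 2, SKMEL-5 normoxia 1 or 2, or A2058 hypoxia 2. The number of calls over all tested genes was lowest in the same fits. The median log2 difference of the tested members was then -2.46, -2.31, -2.40, -2.51 and -2.60 in that order, beside -2.37 with all libraries. MT-ND2, MT-ND6 and MT-CYB were called in all 12 fits that left out a single library. Without the 3 hypoxic libraries that stood apart, MT-ND6 and MT-TQ were the 2 genes called, while all 27 then tested were below 0, with a median log2 difference of -2.78.

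**Figure D2:**
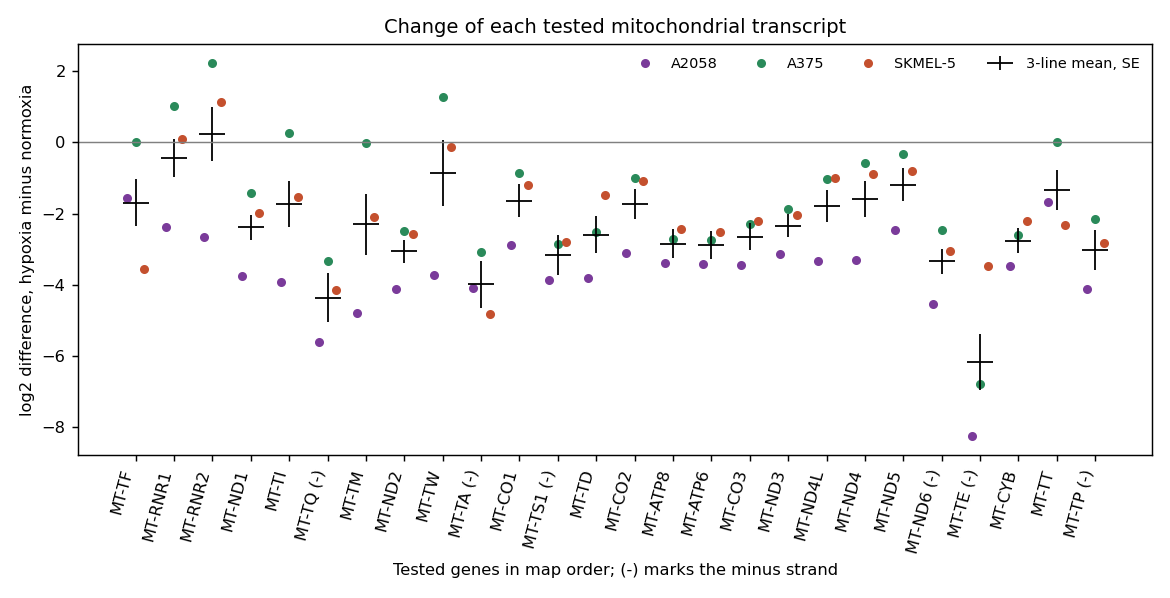
Log2 difference, hypoxia minus normoxia, of the 26 tested mitochondrial genes in map order, with 1 point per line and a cross for the 3-line mean with its standard error. Points of A2058 are mostly lowest, MT-RNR2 spans from -2.67 in A2058 to 2.24 in A375, and the fitted value of MT-TE rests on groups at or near 0 counts.

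Within single lines, 0 of the 26 passed the adjusted threshold in edgeR. Of all tested genes, 0.0102% changed in A2058 (0.00509% fell), and 0% in either of the other lines. With an unadjusted p under 0.05, 22 members were lower in A2058 (3.54% of all tested genes), 14 in A375 (1.09%) and 15 in SKMEL-5 (2.1%). DESeq2 called 19, 6 and 8 members in these lines (1.82%, 0.545% and 0.611% of all tested genes), and limma-voom 3, 0 and 0 (0.0509%, 0% and 0%). Both hypoxic libraries lay below both normoxic ones for 26 of 26 members in A2058 (18.6% of all tested genes), 14 in A375 (14.2%) and 21 in SKMEL-5 (19.7%). A test of whether the 3 lines differed called 0 members in edgeR, 0 in DESeq2 and 0 in limma-voom (0%, 0.0407% and 0% of all tested genes). At an unadjusted edgeR p under 0.05 there was 1 of the 26 members, MT-ND1, beside 1.6% of all tested genes. At an unadjusted p under 0.05 DESeq2 had 8 of the 26 (502 of 19636 tested genes) and limma-voom 0 (305 of 19636). After adjustment the lines were not shown to differ in any member.

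Complex I takes electrons from NADH, and 7 of its subunits are mitochondrially encoded; MT-ND1, MT-ND2, MT-ND3 and MT-ND6 fell, and MT-ND4, MT-ND4L and MT-ND5 did not pass. MT-ND6 is the one mRNA on the minus strand. Its level in A375 was 72.5 and 84.3 CPM in normoxia and 6.76 and 21.9 in hypoxia. SKMEL-5 had 125 and 90.8 CPM of it in normoxia and 7.34 and 18.7 in hypoxia, and A2058 had 424 and 246 against 15.7 and 13.2. Each hypoxic library was thus below every normoxic library of any line. In the 3-line mean MT-ND6 fell 10.2-fold (log2 -3.35 ± 0.36 SE, n = 2 libraries per group, edgeR adjusted p = 0.0046), with -4.54 (A2058), -2.45 (A375) and -3.05 (SKMEL-5).

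MT-ND1, the first mRNA after the rRNA genes (chrM:3307-4262), fell 5.24-fold (log2 -2.39 ± 0.36, edgeR adjusted p = 0.0139). Its A2058 levels were 8114 and 4038 CPM in normoxia against 372 and 535 in hypoxia. The A375 normoxic libraries had 1007 and 1386 CPM, the hypoxic ones 662 and 222. For SKMEL-5, 2354 and 1358 CPM in normoxia stood beside 601 and 333 in hypoxia. The groups were closest in A375, where the lower normoxic library was at 1007 CPM and the higher hypoxic one at 662. MT-ND1 lost its call in 4 of the 12 fits without a single library. MT-ND2 fell by 3.07 ± 0.32 on the log2 scale (edgeR adjusted p = 0.0046). MT-ND3 fell by 2.35 ± 0.32 (edgeR adjusted p = 0.0110).

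MT-ND5 stood at -1.19 ± 0.46 (edgeR adjusted p = 0.203), the smallest shift among the 13 mRNAs. It had 10643 and 4198 CPM in A2058 normoxia and 768 and 1950 in hypoxia. A375 showed 1809 and 1625 CPM in normoxia and 2296 and 439 in hypoxia, and SKMEL-5 3203 and 1432 in normoxia and 1728 and 940 in hypoxia. In A375 and in SKMEL-5 the groups overlapped, with hypoxic replicate 1 above a normoxic library. MT-ND4 (-1.59 ± 0.51) and MT-ND4L (-1.79 ± 0.44), whose genes overlap by 7 bases, had edgeR adjusted p-values of 0.146 and 0.0811. Without the 3 libraries that stood apart these 3 genes stood at -2.20, -2.67 and -2.63, and none passed.

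MT-CYB, the mitochondrial subunit of complex III (chrM:14747-15887), fell 6.79-fold (log2 -2.76 ± 0.35, edgeR adjusted p = 0.00882). It went from 17755 and 6689 CPM in A2058 normoxia to 1106 and 1079 in hypoxia. The change in A375 was from 2623 and 2610 CPM to 362 and 495, and in SKMEL-5 from 4398 and 2243 to 486 and 964. The groups were well apart in each line.

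Cytochrome c oxidase (complex IV) hands electrons to oxygen and has 3 mitochondrial subunits, of which MT-CO3 fell (log2 -2.65 ± 0.38, edgeR adjusted p = 0.0115) and MT-CO1 and MT-CO2 did not pass. MT-CO1, the catalytic subunit, was at 33245 and 12310 CPM in A2058 normoxia and 1932 and 4240 in hypoxia. In A375 the normoxic libraries held 6977 and 4723 CPM and the hypoxic ones 5308 and 1147, so the groups overlapped. In SKMEL-5 normoxia gave 10545 and 4506 CPM and hypoxia 4122 and 2435, which did not overlap. Its 3-line difference was -1.65 ± 0.46 (edgeR adjusted p = 0.112), and that of MT-CO2 was -1.73 ± 0.43 (edgeR adjusted p = 0.0794). MT-CO3 shares sequence with a nuclear copy, MTCO3P12, which also fell (-2.73 ± 0.46, edgeR adjusted p = 0.0222), so reads could have been split between them.

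Both mitochondrial ATP synthase subunits fell by similar amounts, MT-ATP6 by 2.89 ± 0.39 and MT-ATP8 by 2.85 ± 0.41 on the log2 scale (edgeR adjusted p = 0.0110 and 0.0115). MT-ATP6, which lines the proton path, was at 12818 and 3687 CPM in A2058 normoxia and 620 and 931 in hypoxia. Its A375 levels were 2543 and 1867 CPM in normoxia against 251 and 404 in hypoxia. The SKMEL-5 levels were 3995 and 1913 CPM against 344 and 689. Every hypoxic library was below every normoxic one. The genes share 46 bases (chrM:8527-8572), shown with the start codon of MT-ATP6 and the last 3 bases of MT-ATP8 in capitals, so their counts are not independent.
MT-ATP8 and MT-ATP6: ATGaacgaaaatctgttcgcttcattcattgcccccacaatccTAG
Nuclear copies of MT-ATP6 and MT-ND2 were also counted. MTATP6P1, with up to 3916 CPM in a normoxic library, fell by 2.83 ± 0.38 on the log2 scale (edgeR adjusted p = 0.0110). MTND2P28 fell by 3.06 ± 0.28 (edgeR adjusted p = 0.00349). Of 404 such copies 8 were tested and 3 fell, and how the counting divided reads between a gene and its copy is not given in the sources used here.

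**Figure D3:**
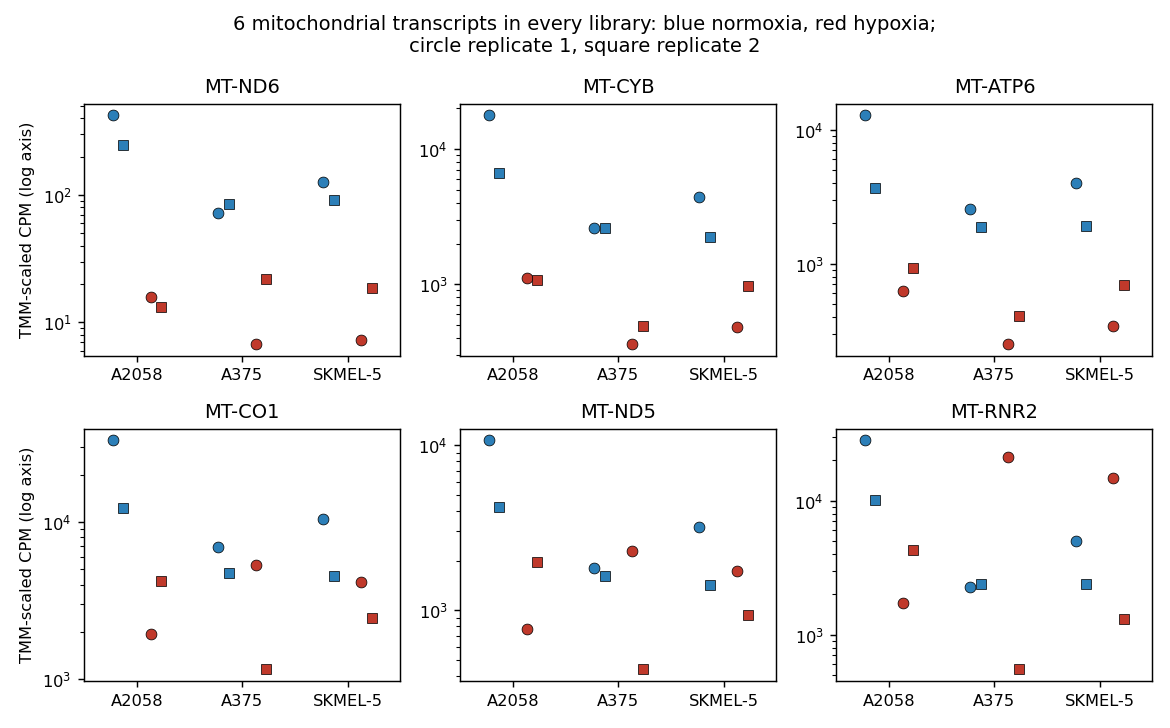
TMM-scaled CPM on a log axis of MT-ND6, MT-CYB, MT-ATP6, MT-CO1, MT-ND5 and MT-RNR2 in each library, blue for normoxia and red for hypoxia, with a circle for replicate 1 and a square for replicate 2. MT-ND6, MT-CYB and MT-ATP6 are lower in all 6 hypoxic libraries, while MT-RNR2 reaches 21319 CPM in A375 hypoxia 1 and 14840 in SKMEL-5 hypoxia 1.

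Per kilobase of gene, the mean level over the 6 normoxic libraries was highest for MT-CO2 (10051 CPM per kb) and MT-CO3 (9750) and lowest among the mRNAs for MT-ND6 (331). MT-ND3 (1961) and MT-ND5 (2107) came next above MT-ND6, then MT-ND1 (3183) and MT-ND2 (3342). In hypoxia the means per kilobase were 26.5 for MT-ND6, 475 for MT-ND1 and 2329 for MT-CO2. The mean is pulled up by A2058 normoxia 1, and the order at the top differed between lines: MT-CO2 was above MT-CO3 in both A2058 normoxic libraries (31515 and 9773 against 28840 and 7751 CPM per kb), and MT-CO3 was above MT-CO2 in all 4 normoxic libraries of the other lines. Lower down, neighbours in this order, such as MT-ND3 and MT-ND5, differed by less than the normoxic libraries differed from each other.

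The 2 rRNAs, which form the core of the mitochondrial ribosome, did not pass the threshold, and their hypoxic duplicates disagreed. MT-RNR2, the 16S rRNA (chrM:1671-3229), was at 28092 and 10125 CPM in A2058 normoxia and 1719 and 4305 in hypoxia. In A375 normoxia it was at 2250 and 2377 CPM, and in hypoxia at 21319 and 549. The SKMEL-5 values were 5015 and 2373 CPM in normoxia and 14840 and 1310 in hypoxia. Hypoxic replicate 1 was the highest of the 4 libraries in A375 and in SKMEL-5 and replicate 2 the lowest. The 3-line difference was 0.23 ± 0.76 (edgeR adjusted p = 0.907), and it turned to -2.37 when the 3 libraries that stood apart were left out. Each of these held the higher MT-RNR2 level of its hypoxic duplicates, and MT-RNR2 was among the genes that had singled them out. The direction of that shift was thus fixed by the choice.

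MT-RNR1, the 12S rRNA (chrM:648-1601), was at 3511 and 1636 CPM in A2058 normoxia and 317 and 666 in hypoxia. It stood at 435 and 500 CPM in A375 normoxia but 1730 and 154 in A375 hypoxia. SKMEL-5 normoxia held 937 and 525 CPM, SKMEL-5 hypoxia 1227 and 325. The pattern was that of MT-RNR2 with a narrower spread, and the 3-line difference was -0.43 ± 0.53 (edgeR adjusted p = 0.691). A list of 23 nuclear RNAs that lack a poly(A) tail, mainly histone mRNAs and small structural RNAs, had a higher sum in 2 of the libraries that stood apart, most of it from H1-2. It summed to 295 CPM of the library total in A375 hypoxia 1 and 138 CPM in SKMEL-5 hypoxia 1, and to 15.3 to 36.5 CPM in the other libraries of those lines. The histone gene H1-2 was at 259 and 91.1 CPM there and at 2.79 to 9.02 CPM in the others. In A2058 the sum was 56.7 to 71.2 CPM, with 59.7 in hypoxia 2. Of the 15 tested members, 11 were above the other 3 libraries of the line and 1 below in A375 hypoxia 1, and 11 above and 4 below in SKMEL-5 hypoxia 1. Among those below were the histone gene H2BC12, at 3.31 CPM in A375 hypoxia 1 against 4.97 to 7.93, and RN7SL1, an RNA of the signal recognition particle, at 0.74 in SKMEL-5 hypoxia 1 against 2.21 to 5.69. How many of all tested genes lay above or below in this way is not given, so these counts have no background. Of the 23, 15 were tested and 0 were called in edgeR or limma-voom, and 5 had 0 counts in every library. At an unadjusted edgeR p under 0.05, 5 of the 15 were higher and 0 lower. Of all 19636 tested genes, 3723 had such a p, 1359 of them lower. DESeq2 called 5 of the 15 higher, beside 1110 of all 19636 tested genes. The part of these RNAs in the rRNA levels was not tested.

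As a ratio within the mitochondrial genome, rRNA counts per mRNA count were higher in hypoxia in each line. The ratio was 0.182 and 0.198 in A2058 normoxia and 0.218 and 0.313 in hypoxia. In A375 it went from 0.0818 and 0.113 to 1.21 and 0.122. In SKMEL-5 it went from 0.113 and 0.120 to 0.994 and 0.142. The mean log2 change was 1.38, beside a pooled within-group SD of 1.27, since most of it came from A375 hypoxia 1 and SKMEL-5 hypoxia 1. It was 0.28 when the 3 libraries that stood apart, which held the higher ratio of each hypoxic group, were left out. Counts on tRNA genes per mRNA count changed by -0.49 on the log2 scale (SD 0.64), less than the spread between duplicates.

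Ratios between genes of the mitochondrial genome do not depend on library scaling, and 4 were tested over the 12 libraries. Each used counts per kilobase and a two-sided exact permutation test with labels exchanged within lines (smallest possible p = 0.00926, adjusted over the 4). The exchange treats the lines as independent, although differences between duplicates were shared by A375 and SKMEL-5 (r = 0.80 in hypoxia). MT-RNR2 to MT-ND1 was 2.12 and 1.54 in A2058 normoxia and 2.84 and 4.93 in hypoxia. A375 normoxia had 1.37 and 1.05, A375 hypoxia 19.7 and 1.52. The SKMEL-5 ratios were 1.31 and 1.07 in normoxia, 15.1 and 2.42 in hypoxia. It was higher in hypoxia in 3 of 3 lines, by 3.64-fold on average (log2 1.86, exact permutation p = 0.00926, adjusted p = 0.0370). The 4 pairs were chosen with earlier results of these data known. MT-RNR2 was also among the genes that differed when the libraries that stood apart were singled out. The p-values of the 4 ratios are thus not independent support. MT-RNR1 to MT-RNR2 (log2 -0.22) and MT-CYB to MT-ND1 (log2 -0.28) both had an adjusted exact permutation p of 0.565, and both turned positive without the libraries that stood apart (0.38 and 0.46).

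MT-ND6 to MT-ND5, which compares the strands at their junction, was 0.137 and 0.203 in A2058 normoxia and 0.0707 and 0.0233 in hypoxia. The A375 ratios were 0.138 and 0.179 under normoxia, 0.0102 and 0.172 under hypoxia. Those of SKMEL-5 were 0.135 and 0.219, then 0.0147 and 0.0687. Hypoxic libraries lay below normoxic ones in A2058 and SKMEL-5, and in A375 hypoxia 2 fell between the normoxic values. The average difference was 4.38-fold (log2 -2.13, exact permutation p = 0.0185, adjusted p = 0.0370). When the 3 libraries that stood apart were left out, the log2 difference was 0.67 for MT-RNR2 to MT-ND1 and -0.81 for MT-ND6 to MT-ND5. Those libraries held the more extreme value of both ratios in each hypoxic group, so both differences had to shrink. The test cannot decide without these libraries. With so few arrangements, an adjusted p under 0.05 needs most of the 4 ratios at the smallest possible p. Among the fits without a single library, MT-RNR2 to MT-ND1 passed only without A2058 normoxia 1, A2058 hypoxia 1, A375 hypoxia 2, SKMEL-5 hypoxia 1 or SKMEL-5 hypoxia 2, with values from 1.25 (without A375 hypoxia 1) to 2.48 (without A375 hypoxia 2). MT-ND6 to MT-ND5 passed only without hypoxia 1 of A2058, or hypoxia 2 of A375 or of SKMEL-5, with values from -2.81 (without A375 hypoxia 2) to -1.45 (without A375 hypoxia 1).

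All 6 tested genes of the minus strand fell, MT-ND6 and 5 tRNAs, against 8 of 20 tested on the plus strand. The 5 tRNAs passed the low-count filter through normoxic libraries, so these counts are no test of a difference between strands. The minus strand gave 0.212 and 0.359% of mitochondrial counts in A2058 normoxia and 0.142 and 0.0653% in hypoxia. A375 had 0.212 and 0.314% under normoxia, 0.0168 and 0.348% under hypoxia. SKMEL-5 had 0.224 and 0.348%, then 0.0235 and 0.146%. The log2 ratio of minus to plus counts was lower by 1.85 on average, beside a within-group SD of 1.55, and the groups overlapped in A375. Without the 3 libraries that stood apart, which held the lower ratio of each hypoxic group, it was lower by 0.49. Whether the counting used the strand of the reads is not given in the sources used here, and where genes of opposite strands overlap or abut, reads could have been given to the other one.

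All 5 tested tRNAs of the minus strand fell. Their hypoxic counts were at most 13 in a library (MT-TQ in A375 hypoxia 2). They thus passed the low-count filter through normoxic libraries, and their fall is not independent of that filter. MT-TE had the smallest p among them (edgeR adjusted p = 0.0120). It had 42 and 24 counts in A2058 normoxia, 15 and 16 in A375 normoxia and 8 and 5 in SKMEL-5 normoxia, and 0 counts in 5 hypoxic libraries and 1 count in SKMEL-5 hypoxia 2. With 0 counts in the hypoxic groups of A2058 and A375 (each library's limit is 3 counts), its fitted fold change depends on the prior count and is not given. The tRNA of glutamine, MT-TQ, had 213 and 149 counts in A2058 normoxia and 6 and 2 in hypoxia. A375 gave 75 and 81 counts, then 0 and 13. SKMEL-5 gave 120 and 72, then 1 and 11. It fell by 4.37 ± 0.69 on the log2 scale (edgeR adjusted p = 0.0167).

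MT-TA fell by 3.99 ± 0.65 on the log2 scale (edgeR adjusted p = 0.0191). MT-TS1 fell by 3.18 ± 0.56 (edgeR adjusted p = 0.0267) and MT-TP fell by 3.03 ± 0.56 (edgeR adjusted p = 0.0315). These are changes of small counts, at most 42, 50 and 116 in a library. Leaving out single libraries ended the call of MT-TE in 4 of 12 fits, of MT-TQ and MT-TA in 5 each and of MT-TS1 and MT-TP in 10 each. The fitted values of MT-TQ and MT-TA moved to -6.29 and -5.49 without A375 hypoxia 2, that of MT-TS1 to -4.88 without the same library and that of MT-TP to -3.90 without A375 hypoxia 1.

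On the plus strand MT-TD was the 1 called tRNA of 6 tested, and it too passed the low-count filter through normoxic libraries. It had 63 and 55 counts in A2058 normoxia and 5 and 4 in hypoxia. The A375 counts were 9 and 8 under normoxia, 2 and 0 under hypoxia. SKMEL-5 gave 12 and 13, then 5 and 4. The groups did not overlap, and the 3-line difference was -2.60 ± 0.52 (edgeR adjusted p = 0.0433), lost in 10 of the 12 fits without a single library and -3.73 without A375 hypoxia 1. MT-TF, MT-TI, MT-TM, MT-TW and MT-TT ranged from -2.30 to -0.85 and did not pass. MT-TI, MT-TM and MT-TW, which lie between rRNA and MT-CO1 on the map, had 78, 30 and 26 counts in A375 hypoxia 1 against 11, 3 and 0 in A375 hypoxia 2, the same side as MT-RNR2.

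Among tRNA counts, the share from the minus strand was 56.3% (95% exact Clopper-Pearson interval 52.9 to 59.7) and 49.2% (45.4 to 53.1) in A2058 normoxia and 32.8% (21.0 to 46.3) and 20.5% (11.98 to 31.6) in hypoxia. In A375 normoxia it was 71.1% (65.0 to 76.7) and 58.8% (53.4 to 63.9), and in hypoxia 5.68% (2.76 to 10.2) and 57.4% (42.2 to 71.7). SKMEL-5 had 58.0% (53.2 to 62.7) and 49.6% (44.3 to 54.9) in normoxia and 10.3% (5.06 to 18.1) and 50.0% (36.6 to 63.4) in hypoxia. The hypoxic libraries with the lowest shares were A375 hypoxia 1, SKMEL-5 hypoxia 1 and A2058 hypoxia 2, the same 3 that stood apart. The intervals cover counting error only and rest on 47 to 838 tRNA counts per library.

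**Figure D4:**
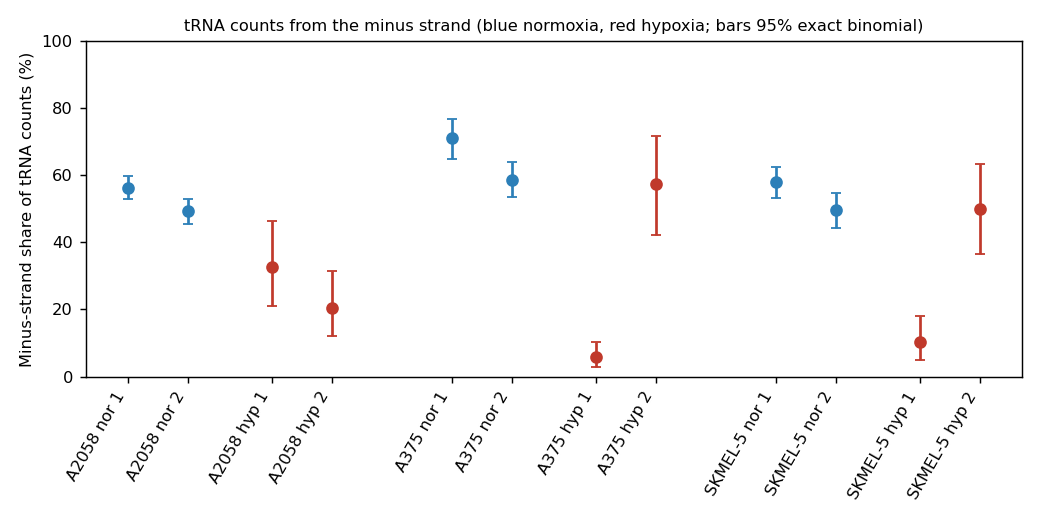
Percent of the tRNA counts of each library that came from minus-strand tRNA genes, blue for normoxia and red for hypoxia, with nor and hyp for the condition and 95% exact binomial intervals as bars. The 6 normoxic libraries lie between 49.2 and 71.1%, and the hypoxic ones between 5.68 and 57.4%.

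The 11 tRNAs that did not pass the low-count filter were MT-TV, MT-TL1, MT-TC and MT-TY, with at most 17 counts in a library, and 7 with 0 counts in all 12 libraries (MT-TN, MT-TK, MT-TG, MT-TR, MT-TH, MT-TS2 and MT-TL2). A count of 0 allows up to 3 counts per library, which is 0.0553 to 0.0887 CPM. The counts of the 22 differed with the spacing of the genes. All 10 tRNAs with a gene of the same strand within 31 bases on both sides had totals of 0 to 22 counts over the 12 libraries, and 7 of them had 0. The other 12, which have a wider gap or no further gene of their strand on at least 1 side, had totals of 45 to 743. Gene lengths overlapped, 59 to 75 bases in the first set and 66 to 72 in the second. The distance of 31 bases was chosen after the counts were seen, and no test is given.

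The make-up of the mRNA pool, as each gene's percent of the counts on the 13 mRNAs, held within narrower ranges in 10 libraries than in A375 hypoxia 1 and SKMEL-5 hypoxia 1. ATP synthase subunits held 1.72 and 2.87% of the pool in these 2 libraries and 8.25 to 11.0% in the other 10. MT-CYB held 1.91 and 3.0% against 6.80 to 11.8%, and MT-CO3 3.93 and 5.35% against 9.17 to 13.2%. MT-ND6 held 0.0356 and 0.0454% against 0.0830 to 0.415%. MT-ND4 took the larger part instead, 31.4 and 28.6% against 12.7 to 18.6% elsewhere. MT-ND5 took 12.1 and 10.7%, beside 12.3% in A2058 hypoxia 2 and 5.51 to 8.21% in the rest.

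Between the duplicates of a hypoxic group, some mRNAs differed in opposite directions. The library that stood apart exceeded its duplicate in MT-ND4 by 1.01 (A2058), 2.68 (A375) and 1.16 (SKMEL-5) on the log2 scale. In MT-ATP8 the differences were 0.54, -1.28 and -1.29, and in MT-ND6 -0.26, -1.69 and -1.35. With 1 library on each side these differences have no test.

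**Figure D5:**
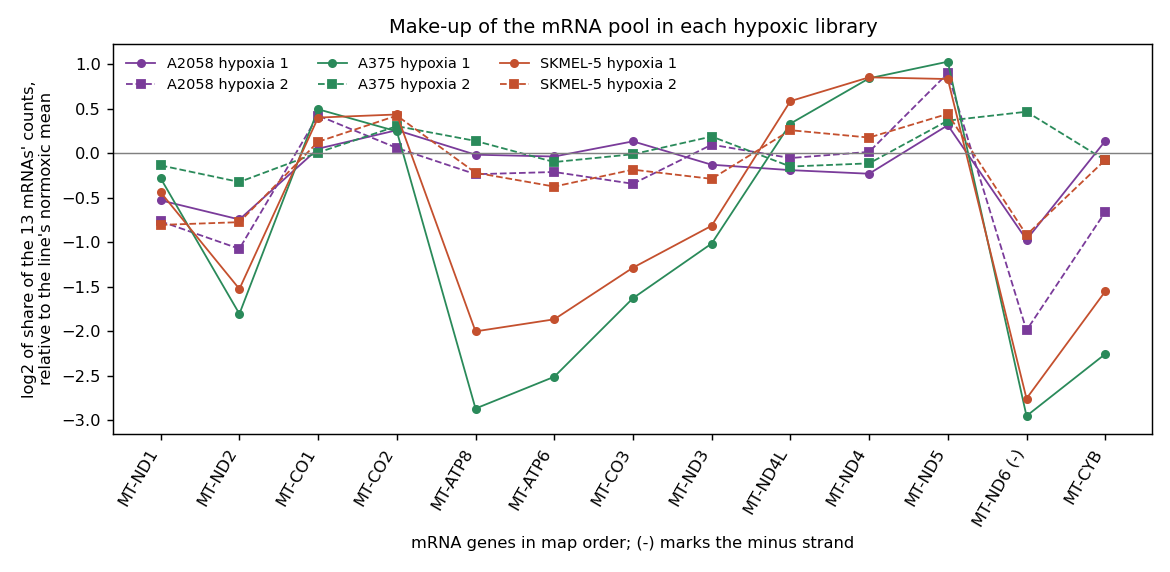
Log2 of each mRNA's share of the 13 mRNAs' counts in the 6 hypoxic libraries, relative to the mean of the line's normoxic libraries, in map order. A375 hypoxia 1 and SKMEL-5 hypoxia 1 run low at MT-ND2, from MT-ATP8 to MT-ND3 and at MT-ND6 and MT-CYB, and high from MT-ND4L to MT-ND5.

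The nuclear genes that serve these transcripts did not pass the threshold in edgeR or in limma-voom. Of 38 tested factors that copy, transcribe, cut or stabilise mitochondrial DNA and RNA, 0 were called, with a median log2 difference of -0.38. At an unadjusted p under 0.05, 12 of the 38 were lower and 0 higher (6.92% of all tested genes were lower at that p). DESeq2 called 4 lower, beside 433 of all 19636 tested genes. The smallest p was that of MTERF2, a member of the mitochondrial termination factor family, at -0.87 ± 0.26 (edgeR adjusted p = 0.128). Of 78 tested proteins of the mitochondrial ribosome 0 were called (median -0.20), 10 were lower and 1 higher at an unadjusted p under 0.05, and DESeq2 called 1. MRPS25, a small subunit protein, had the smallest edgeR p (-0.79 ± 0.19, edgeR adjusted p = 0.0762). Of 20 tested mitochondrial tRNA synthetases 0 were called (median -0.26), 4 were lower and 1 higher at an unadjusted p under 0.05, and DESeq2 called 2 lower. The valine enzyme VARS2 had the smallest p (-1.55 ± 0.47, edgeR adjusted p = 0.131).

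Nuclear subunits of the same complexes had 3-line medians nearer to that of all genes (0.02) than their mitochondrial partners. For complex I the median of 37 tested nuclear subunits was -0.20, beside -2.35 for the 7 mitochondrial ones. NDUFS6, an accessory subunit, had the smallest p (-0.69 ± 0.19, edgeR adjusted p = 0.113). The 9 nuclear subunits of complex III had a median of -0.10, with UQCR11 smallest in p (-0.74 ± 0.34, edgeR adjusted p = 0.263). The 11 of complex IV had a median of 0.07, where the 3 mitochondrial ones stood at -1.73, with COX7B smallest in p (-0.34 ± 0.38, edgeR adjusted p = 0.648). In ATP synthase 15 nuclear subunits had a median of 0.0046, beside -2.87 for MT-ATP6 and MT-ATP8, and ATP5MC1, a subunit of the rotating ring, was at -1.12 ± 0.33 (edgeR adjusted p = 0.122). The lines went in different directions: in the order A2058, A375 and SKMEL-5 the medians were -0.19, 0.12 and -0.67 for nuclear complex I, -0.07, 0.34 and -0.38 for complex III, 0.17, 0.54 and -0.56 for complex IV and 0.02, 0.21 and -0.48 for ATP synthase. No nuclear subunit was called in edgeR or limma-voom. In complexes I, III and IV and ATP synthase, 2, 1, 0 and 1 were lower at an unadjusted p under 0.05 and 0 were higher, and DESeq2 called 2, 0, 0 and 1. Over all 19636 tested genes, 6.92% were lower at that p and DESeq2 called 433 lower. The difference between nuclear and mitochondrial subunits was not tested.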

How the data were processed

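RNA-seq of 12 libraries was analysed, in 6 groups taken from the sample labels. Values are raw, unnormalized counts for 60656 Ensembl IDs, as deposited by the authors. Reads were converted with bcl2fastq 2.20, trimmed with Trim Galore 0.6.1 and aligned with STAR 2.5.0a on GRCh38, as far as the tools named in the submitters' processing notes tell. Which program counted them, whether it used strand, and with which annotation, is not given in the sources used here. Total RNA went into a NuGen kit for mRNA, per the labels' protocols.

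Symbols came from a reference table with the ID version ignored, and positions and sequences from GENCODE 29 (GRCh38), which held all 37 mitochondrial genes in the same ID version. Counts were fitted in R 4.3.3 with edgeR 4.0.16: filterByExpr by group (minimum count 10, minimum total 15), which left 19636 genes, TMM scaling, and a quasi-likelihood model with 1 mean per group over all 12 libraries, so that the groups shared 1 estimate of the spread (6 residual degrees of freedom). Contrasts were hypoxia minus normoxia in each line, the mean of these 3, and a test of whether they were equal. Adjustment was by Benjamini-Hochberg over all tested genes, with 0.05 as threshold. Standard errors are the absolute log2 difference divided by the square root of its F statistic. Sums and ratios of classes are descriptions with no test. The steps were tested on simulated data.

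The 37 members, the gene pairs and all gene lists were chosen with earlier results of these data known. Values in every library are given for MT-ND6, MT-RNR1, MT-RNR2, MT-ND1, MT-ND5, MT-CYB, MT-CO1, MT-ATP6 and the tested tRNA with the smallest p on each strand, and each nuclear list is represented by up to 2 called members per direction or the one with the smallest p; further values, such as those of MT-TQ, were chosen after they were seen. Alternatives were DESeq2 1.42.0 and its size factors, limma-voom (limma 3.58.1), library totals in place of TMM, scaling without the mitochondrial genes, no low-count filter, a filter of 1 CPM in 2 libraries, a replicate block and leaving out each library in turn. Added after the data were seen were leaving out 3 hypoxic libraries together and taking SKMEL-5 or A375 out of the mean of the lines. A2058, whose mitochondrial genes had the lowest median log2 difference (-3.46), stayed in every such mean.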

Additional observations from a re-analysis of the deposited data

How the results depend on the processing

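The count of mitochondrial genes called in the 3-line mean (14) was 22 with no low-count filter, 9 with the replicate block (8 mRNAs and 1 tRNA, MT-TQ), 2 with the 3 divergent hypoxic libraries left out, 9 for the A2058-A375 mean, 7 for the A2058-SKMEL-5 mean, and 3 to 15 when single libraries were left out; the cause was not tested. DESeq2 gave 18 and limma-voom 14. Over all genes the count (220) was 135 with library totals, 1543 with DESeq2, 1855 with no filter, 91 with the replicate block, 30 without the libraries that stood apart, and 15 to 1120 without single libraries. The count of mitochondrial genes called in A2058 (0) was 1 with library totals, 19 with DESeq2, 3 with limma-voom, 23 with no filter and 0 to 1 without single libraries (over all genes 3, 357, 10 and 397 under the first 4). For DESeq2 and no filter the mitochondrial calls were 6 and 10 (A375) and 8 and 10 (SKMEL-5), and no filter gave 4 for the difference between lines. Over all genes these settings gave 107 and 384 (A375), 120 and 350 (SKMEL-5) and 83 (difference between lines). Of the 10 in A375 with no filter, 9 fell and 1 rose. MT-ND6 passed the threshold under all 21 alternatives of the 3-line fit (largest edgeR adjusted p = 0.0341). MT-RNR2 turned to -0.017 with library totals, -0.55 with limma-voom, -0.57 with the replicate block, -2.37 without the libraries that stood apart and, among fits without a single library, to -1.19 without A375 hypoxia 1 and -0.63 without SKMEL-5 hypoxia 1, within a range of -1.19 to 0.57. Library totals in place of TMM moved the median of all genes from 0.02 to -0.14.

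For the gene ratios the block (paired sign flips) left log2 1.86 and -2.13 as they were, with an adjusted exact permutation p of 0.0625 for both MT-RNR2 to MT-ND1 and MT-ND6 to MT-ND5. Under the block, too, an adjusted p under 0.05 needs most of the 4 ratios at the smallest possible p. Without the libraries that stood apart the 4 ratios were 0.67, -0.81, 0.38 and 0.46, and without single libraries 1.25 to 2.48, -2.81 to -1.45, -0.52 to 0.074 and -0.62 to 0.058. The smaller number of arrangements raises the smallest p when the libraries that stood apart are left out, but not when a single library is. Same-numbered libraries were not shown to pair: their deviations correlated over genes at -0.30 (A2058), 0.23 (A375) and 0.26 (SKMEL-5). Each value sets 1 normoxic against 1 hypoxic difference, so it cannot decide whether they were paired. With 2 libraries per group and a biological coefficient of variation of 0.453, single lines are resolved poorly, and tRNA genes are limited by counts of 0 to 213 per library.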
